A study of Ovis aries with 60 samples.

Results

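CHG sites read on both strands are pairs of cytosines in the deposited CHG tables, a plus-strand cytosine and a minus-strand cytosine 2 bases further on the same chromosome, both listed. CHG stands for a cytosine followed by a base other than guanine (H) and then a guanine. There were 3505 such pairs in F0, 3398 in F1 and 10435 in F2. Of all listed CHG cytosines, those in pairs made up 0.318% in F0 (7010 of 2205827), 0.329% in F1 (6796 of 2067477) and 1.50% in F2 (20870 of 1394192). Over the generations 11402 pairs were listed at least once, and 2169 were listed in all 3 tables. The methylation level of a strand was the share of its reads that kept the cytosine after bisulfite treatment, which converts unmethylated cytosines. An unmethylated cytosine left unconverted therefore counts as methylated in this level. A position is listed as CHG for all samples of a table alike, and the sequence of the site in each animal was not examined.

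A CHG cytosine faces another CHG cytosine when its middle base is A or T, so that both strands of such a site can be methylated. In plants a chromomethylase keeps CHG methylation on both strands. In mammals DNMT1 copies CG methylation from the old strand to the new one, while methylation outside CG is laid down by the de novo enzymes DNMT3A and DNMT3B, is best known from neurons, oocytes and embryonic stem cells, and has no known enzyme that copies it. CHH cytosines, which have no cytosine in a matching place on the other strand, served as the level outside CG in the same library.

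Semen of Polypay sheep was measured by whole-genome bisulfite sequencing. The F0 generation held 5 rams fed a control diet with added rumen-protected methionine from weaning until puberty and 5 rams fed the control diet alone, the other member of each twin pair. The F1 generation was measured as 5 pools of sons of the methionine rams and 5 of the control rams, and the F2 generation as 10 grandsons of each diet, 2 per F0 sire. All ewes, F1 animals and F2 animals were untreated, so that the diet of F1 and F2 samples means that of the F0 sire. Pools hide the spread between the rams in them, and F2 rams of 1 sire are not independent of each other. The reads on the pairs numbered 296708 to 662164 per F0 ram, 293526 to 683161 per F1 pool and 1366058 to 2624042 per F2 ram.

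The pairs lay mostly on unplaced scaffolds, the pieces of the assembly (Oar_rambouillet_v1.0) with no chromosome. These held 2363 of the F0 pairs (67.4%), 2227 of the F1 pairs (65.5%) and 7961 of the F2 pairs (76.3%), but 1.14%, 1.20% and 2.69% of all listed CHG cytosines. Among neighbouring listed CHG cytosines 3 to 100 bases apart, 99.8% in F0, 99.8% in F1 and 98.8% in F2 were on the same strand, so that a place read deeply on both strands was rare in these tables. The pairs were clustered, with 394 of the F0 pairs, 322 of the F1 pairs and 529 of the F2 pairs in 1 run on chromosome 1 (chr1:128498500-128510819 in F0) in which no neighbours were more than 1000 bases apart. The median over pairs of the coverage per strand was 34.1 reads in F0, 33.1 in F1 and 48.4 in F2, against 23.3, 23.9 and 25.6 for CHG cytosines listed on 1 strand only. The strands of a pair differed more than 2-fold in mean coverage in 664 F0 pairs, 607 F1 pairs and 1928 F2 pairs. Which genes or repeats the pairs lie in was not analysed here.

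In F2, 4 rams stood apart from the other 16 in the CG methylation within 100 bases of the pairs. Their level there was 59.7 to 66.9%, against 29.2 to 46.2% in the other 16, 28.3 to 53.7% in the F0 rams and 33.0 to 50.5% in the F1 pools. Over all listed CG cytosines the mean level was higher, at 74.2% in F0, 73.8% in F1 and 70.7% in F2. In that overall level too the 4 rams, at 72.7 to 73.4%, lay above the other 16, at 68.5 to 72.1%. The 4 rams were 1 grandson each of the methionine rams 3T and 5T and both grandsons of the control ram 24C. In the sperm RNA of the same F2 rams (20 libraries with 805831 to 13137757 counts), markers of late spermatids, leukocytes and epithelium were all present, and of the 29 markers in the table LYZ alone was at 0, in 1 library. Over all 20 rams the summed level of 12 of 13 late spermatid markers ranged from 41.6 to 11178 CPM (counts scaled to a common library total), that of 9 of 10 leukocyte markers from 139 to 21164 and that of 8 of 10 epithelial markers from 112 to 9915. Abundant genes weigh most in these sums. The highest count in a library was 178805 for S100A9 but 117 for LYZ among leukocyte markers. Among epithelial markers it was 99753 for KRT4 but 29 for KRT5, and among spermatid markers 9867 for SMCP but 207 for AKAP4. In the 4 rams the spermatid sum was 213 to 367 (median of the other 16, 1005), the leukocyte sum 9754 to 13284 (median 9375) and the epithelial sum 3396 to 7747 (median 2772). The part of other cells in the levels of these rams was not tested. The reported F2 comparisons of mean levels are given with and without them. Tests of single cytosines used all 20 rams, as did the other settings where no second value is given. RNA was extracted after a lysis step against somatic cells, which the methods do not give for the DNA, so the RNA markers may not show the cells in the DNA samples.

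No pair had a mean level of 5% or more on both strands. In F0, 21 strands had a mean level of at least 10% over the rams, in F1 23 and in F2 43, each in a pair of its own. The partner of every one of them stood under 10%, and the highest mean level of a partner was 2.37% in F0, 2.72% in F1 and 2.99% in F2. A count of 0 of 43 allows a share of up to 6.98% in F2, of 0 of 23 up to 13.04% in F1 and of 0 of 21 up to 14.3% in F0. These limits cover counting error only and take the strands as independent, although 8 of the F0, 10 of the F1 and 11 of the F2 strands lay close together in the runs described below, so the true limits are wider. At a threshold of 5% the strands numbered 30, 37 and 82, again with no partner at the threshold, which allows up to 3.66% in F2. No F0 strand, 1 F1 strand and 4 F2 strands reached 50%.

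CG sites read on both strands of the same tables gave the contrast. There were 2886 CG pairs in F0, 2881 in F1 and 7314 in F2. Of 937 CG strands with a mean level of at least 50% in F0, 792 had a partner of at least 50% and 7 had one under 10%. In F1 the counts were 946 and 10 of 1176, and in F2 3116 and 1 of 3549. Across pairs, the strand levels had a Pearson correlation of 0.913 in F0, 0.877 in F1 and 0.964 in F2 for CG pairs. For CHG pairs it was 0.030 in F0, 0.023 in F1 and 0.0072 in F2. Spearman's rho was 0.917, 0.896 and 0.963 for CG pairs and 0.0075, 0.031 and -0.100 for CHG pairs, in the order of the generations. These correlations describe the pairs, which share libraries and are not independent.

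**Figure D1:**
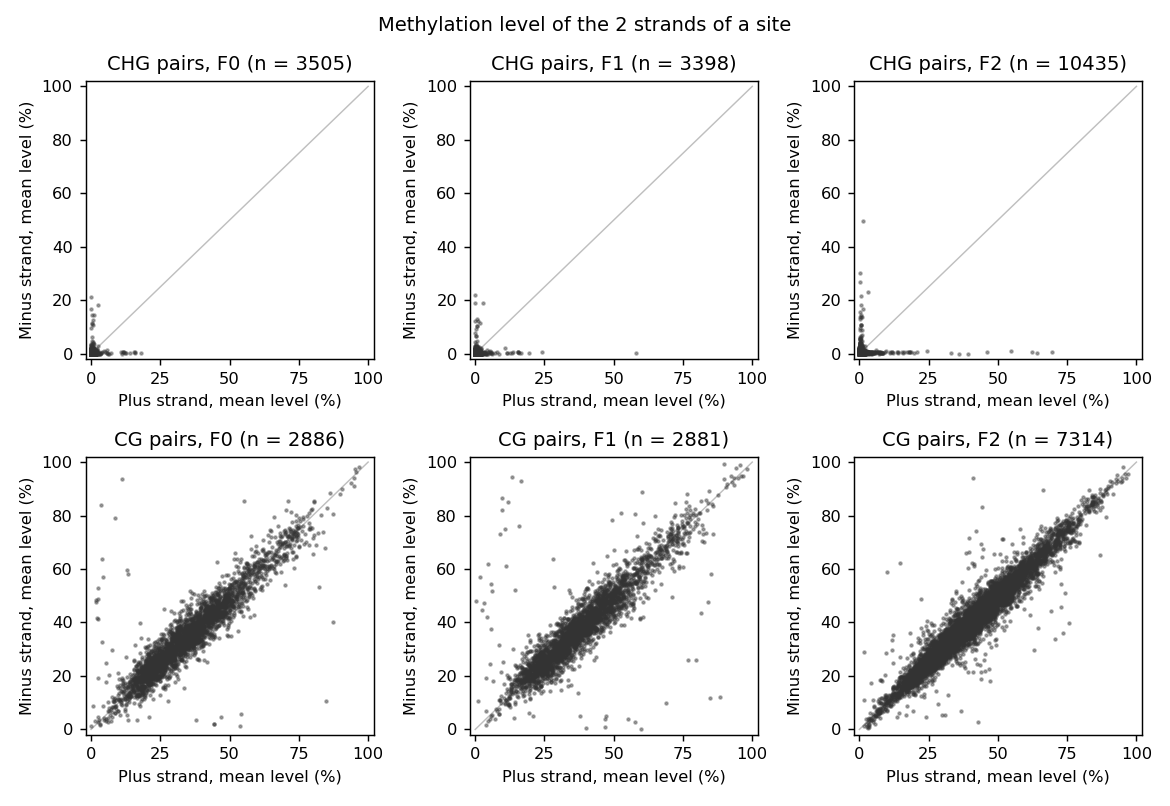
Mean methylation level of the plus strand (x axis, %) and the minus strand (y axis, %) of every pair over the samples of a generation, with CHG pairs in the upper panels, CG pairs in the lower panels and a grey line at equal levels. The CHG points lie close to the axes, with a highest lower strand of 2.99% in F2, whereas the CG points follow the line.

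Single samples showed the same picture. A level of at least 20% on a strand was seen in 46 combinations of a pair and a ram in F0, 61 of a pair and a pool in F1 and 394 of a pair and a ram in F2. In none of these was the partner at 20% or more. The pair chr3:221577396-221577398 in 1 F2 grandson of ram 9T was the only case with 10% or more on both strands, with 17.6% on the plus strand and 54.1% on the minus strand. Over all 20 rams its minus strand ranged from 26.8 to 67.2% with a mean of 49.7% ± 9.42 (SD, n = 20). Many pairs had few methylated reads at all. No methylated read was found on either strand of 600 F0 pairs, 575 F1 pairs and 104 F2 pairs, at a median of 681, 661.5 and 1935 reads per pair over all samples.

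The most methylated member was the plus strand of chr4:120998206-120998208. In F2 it ranged from 62.5 to 82.5% with a median of 68.3% over the 20 rams, while its minus strand ranged from 0 to 2.38%. The means were 70.9% ± 7.39 (SD, n = 10) in methionine grandsons and 68.3% ± 5.27 (SD, n = 10) in control grandsons, and the groups overlapped. In F1 the same strand was at 64.4, 48, 58.8, 77.3 and 47.8% in the methionine pools and at 57.1, 35.3, 76.6, 53.8 and 61.1% in the control pools. Its minus strand in F1 was at 0 in all pools but the control pool 12C, at 3.12%.

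Other F2 strands with a high mean varied more between rams. On chr8:1961694-1961696 the plus strand had a mean of 64.2% and was at 0 in 2 rams, at 100% in 5 and between 25 and 75% in 10, with a mean coverage of 15.7 reads. The plus strand of chr1:239696427-239696429 had a mean of 36.0%, with 6 rams at 0, 1 at 100% and 12 between 25 and 75%. Its minus strand was at 0 in all 20 rams. On chr18:22771576-22771578 the plus strand was between 25 and 75% in all 20 rams, with a range of 33.3 to 68.2% and a mean of 54.7% ± 9.68 (SD, n = 20). At 10 to 32 reads on such a strand in a ram, a level moves in steps of several points. Whether these sites were CHG in every ram was not tested.

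**Figure D2:**
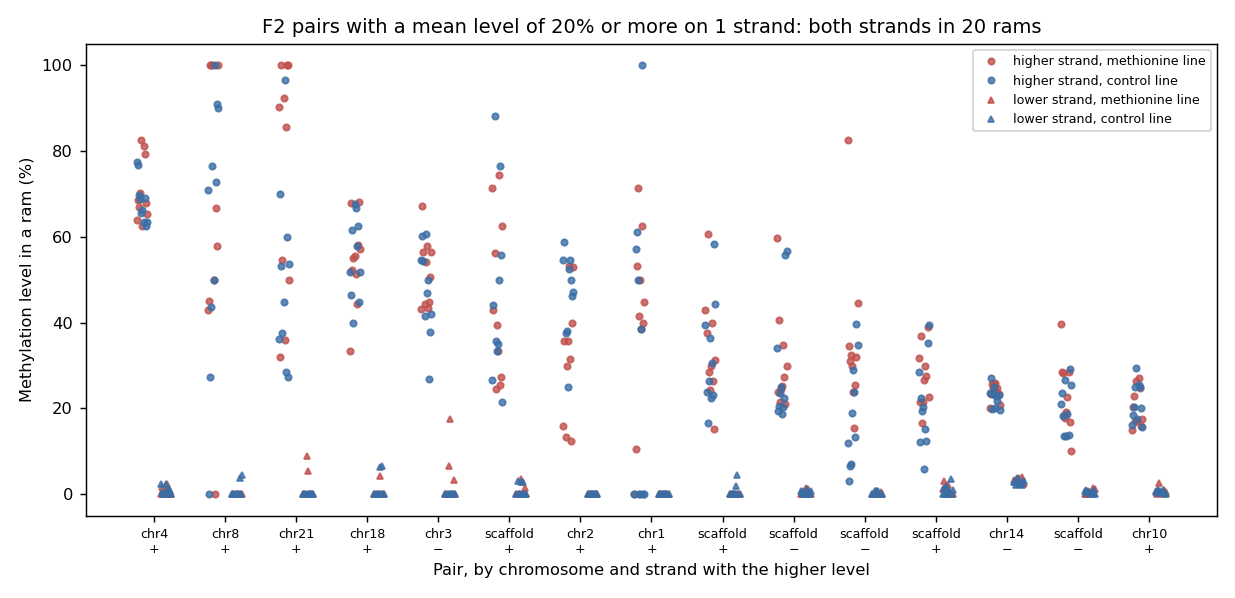
Methylation level (y axis, %) of both strands of the 15 F2 pairs with a mean of 20% or more on a strand (x axis, by chromosome and higher strand) in each of the 20 rams, circles for the higher strand, triangles for the lower strand, red for methionine grandsons and blue for control grandsons. The lower strands stay at 8.89% or less in every ram apart from 1 at 17.6%, whereas the higher strands spread from 0 to 100% at the widest.

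Of the 43 F2 strands with a mean of 10% or more, 7 separated the 4 rams with high nearby CG methylation from the other 16, with all 4 rams above the 16. These were 7 of the 17 strands on unplaced scaffolds and 0 of the 26 on autosomes. Over all listed CHG cytosines with such a mean, 16 of 2698 (0.593%) separated these rams, among them 2 of 38 one-strand cytosines on unplaced scaffolds. The following 3 of the 7 belong to pairs named here. The plus strand of NW_020997668.1:21646-21648 was at 28.8 to 35.8% in the 4 rams and at 7.82 to 16.2% in the others. The minus strand of NW_020998094.1:32191-32193 was at 40.6 to 59.6% in the 4 and at 18.6 to 34.8% in the others. On NW_020997068.1:3215-3217 the plus strand was at 42.9 to 60.6% in the 4 and at 15.2 to 40% in the others. Each diet gave 2 of the 4 rams. The comparison was made after the levels had been seen and was not tested.

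In F0 the largest differences between strands were on unplaced scaffolds and in a run of pairs on chromosome 14. The minus strand of NW_020998535.1:17662-17664 was at 26.7, 33.3, 22, 16.1 and 10.5% in the methionine rams 3T, 5T, 9T, 11T and 23T and at 21.2, 31.2, 20.7, 20 and 12.1% in the control rams 4C, 6C, 10C, 12C and 24C. The plus strand of this pair was at 0 in 9 of the 10 rams and at 1.09% in ram 10C. The groups overlapped throughout. In the pools the minus strand had a mean of 21.9% ± 7.67 (SD, n = 10), and in the F2 rams 21.7% ± 7.11 (SD, n = 20), against 21.4% ± 7.47 (SD, n = 10) in F0.

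The minus strand of NW_020998094.1:32191-32193 was at 25, 14.3, 18.5, 17.2 and 20.5% in the same methionine rams and at 14.6, 15.4, 12.5, 14.8 and 15% in the control rams. Its plus strand had no methylated read in any F0 ram. The group means of 19.1% ± 3.99 and 14.5% ± 1.13 (SD, n = 5 each) differed by 5.19 points over the summed reads, with an adjusted p of 0.707 in the logistic test across all CHG cytosines and of 0.815 by limma. In F1 the direction was the opposite, with 17.3% ± 9.03 in methionine pools and 20.5% ± 3.07 in control pools. On the same scaffold as the first pair, the plus strand of NW_020998535.1:18331-18333 had a mean of 17.9% ± 8.13 in F0 with a highest minus level of 2.94% in any ram. The plus strand of NW_020997668.1:21646-21648 had a mean of 15.9% ± 8.62, from 2.22% in ram 9T to 27.8% in ram 4C.

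The pairs whose lower strand was highest in F0 had that strand at 1.43 to 2.52% only. They were NW_020997083.1:35133-35135, chr14:410725-410727, chr18:68125752-68125754, chr1:128504644-128504646 and chrX:7387283-7387285. In chr18:68125752-68125754 the plus strand was at 2.52% ± 3.37 and the minus strand at 2.97% ± 4.92 (SD, n = 10) with 16 to 18.8 reads per ram and strand on average, so that a single methylated read in a ram moves its level by several points. Apart from chr14:410725-410727, described next, each had a median of 0 on both strands in F0.

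Along chromosomes 14, 25 and 10, methylated strands recurred every 22 bases. This spacing was noticed in the data and then followed, so that it is a description. Runs of at least 3 pairs at 22 bases numbered 4 in F0, 2 in F1 and 10 in F2, of which 2, 2 and 3 held a strand at 10% or more. The methylated runs held 11, 11 and 18 pairs, of which 10, 10 and 15 had a strand at 5% or more, and the plus strand was the higher one in 10, 10 and 17. In the other runs the highest mean level was 1.00% in F0 and 1.01% in F2.

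The run on chromosome 14 had 5 pairs, from chr14:410725-410727 to chr14:410813-410815. In its first pair the minus strand was methylated, at 18.2% ± 3.16 (SD, n = 10) in F0, 19.1% ± 1.86 (SD, n = 10) in F1 and 23.2% ± 2.23 (SD, n = 20) in F2. In the other 4 pairs the plus strand was methylated, at 15.7, 15.6, 10.8 and 5.59% in F0 in the order of the run. In F1 these levels were 15.5, 16.4, 11.4 and 6.07%, and in F2 18.2, 18.8, 13.6 and 7.08%. The levels thus fell toward the far end in every generation, while the other strand of these 4 pairs stayed at 0.382 to 0.815%. The run was deeply covered, with a mean over the F0 rams of 332 to 1914 reads on a strand.

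The F0 values of the first pair differed between rams within each diet. Its minus strand was at 20.1, 19, 22.1, 14.8 and 13.8% in the methionine rams and at 20.5, 20.3, 21.3, 14 and 16.6% in the control rams. The minus strand was thus at 19 to 22.1% in 3 rams of each diet and at 13.8 to 16.6% in the other 2 of each. The higher rams were 3T, 5T, 9T, 4C, 6C and 10C and the lower ones 11T, 23T, 12C and 24C. Rams with consecutive numbers, which may be twins, were thus on the same side, which was not tested. The plus strand of this pair was at 0.938 to 4.96% in the methionine rams and at 1.10 to 3.29% in the control rams. On chromosome 25, from chr25:2502943-2502945 in F2, the plus strand rose to 17.8% ± 2.97 and 17.8% ± 2.68 (SD, n = 20) at 44 and 66 bases from the first pair and was at 3.51% ± 1.42 at 132 bases. On chromosome 10, from chr10:15562-15564, it reached 20.8% ± 4.51 (SD, n = 20) at 44 bases in F2 and was at 3.13% ± 3.4 at 110 bases.

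**Figure D3:**
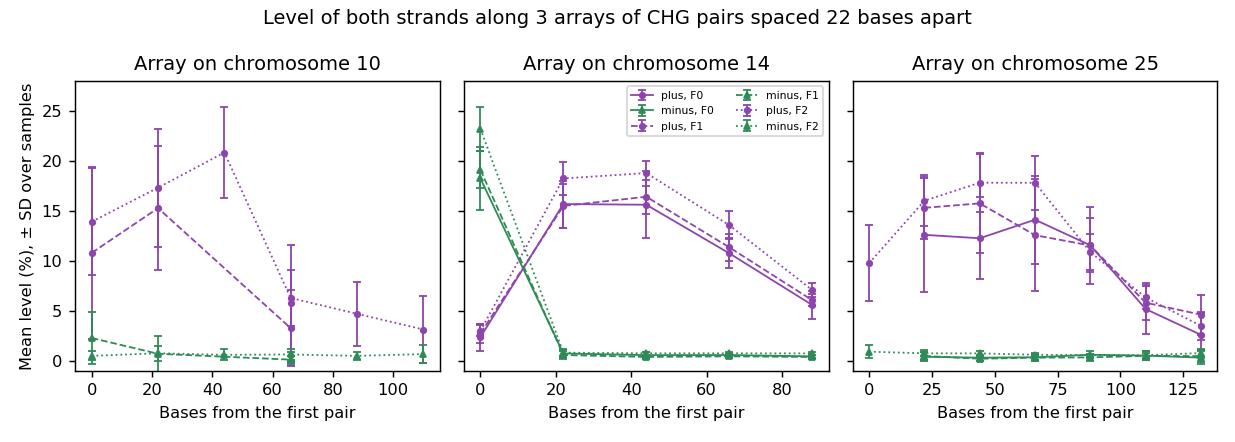
Mean level (y axis, %, ± SD over the samples of a generation) of the plus strand (purple circles) and minus strand (green triangles) against distance from the first pair (x axis, bases) in the runs on chromosomes 10, 14 and 25, solid for F0, dashed for F1 and dotted for F2. The plus strand lies above the minus strand at every distance but the start of the chromosome 14 run, where the minus strand is at 18.2 to 23.2%.

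The methylated strands were largely the same in the generations. Of the 21 F0 strands at 10% or more, 18 belonged to pairs listed in F1 and 17 of these were at 10% or more there on the same strand. Of the 20 listed in F2, 18 were. Of the 23 F1 strands, all 22 listed in F2 and all 17 listed in F0 reached 10% there. Of the 43 F2 strands, 19 belonged to pairs listed in F0, and 18 of these were at 10% or more there. In F1, 23 of the 43 were listed and 22 were at 10% or more. Strands in pairs not listed in the other generation could not be compared. In all, 47 strands reached 10% in some generation and 17 did so in all 3. The Pearson correlation of a strand with itself across generations was 0.886 between F0 and F1 over 4964 cytosines, 0.882 between F0 and F2 over 5810 and 0.940 between F1 and F2 over 5436. Spearman's rho for the same cytosines was 0.189, 0.236 and 0.261, so that most cytosines, which are near 0, were ordered far less alike. With the opposite strand of the same pair Pearson's correlation was 0.024, 0.030 and 0.019. Each generation's table was filtered on its own, and sires, dams and pools are related, so these values describe the tables.

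The strands at 10% or more were described further by strand, place and coverage. They lay on the plus strand in 12 of 21 in F0, 14 of 23 in F1 and 27 of 43 in F2. They were on autosomes in 11, 14 and 26 cases and on unplaced scaffolds in 10, 9 and 17. The methylated strand had fewer reads than its partner in 14 of 21, 18 of 23 and 29 of 43. The median coverage of their pairs was 62, 56.8 and 133 reads, against 34.1, 33.1 and 48.4 for all pairs. They were at 5% or more in every sample of the generation in 11, 14 and 30 cases.

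The mean level over all pairs was low in every sample and did not separate the diets. In F0 it was 0.384, 0.358, 0.333, 0.316 and 0.385% in the methionine rams and 0.354, 0.381, 0.341, 0.326 and 0.354% in the control rams. The means of 0.355% ± 0.0307 and 0.351% ± 0.0205 (SD, n = 5 each) differed by 0.00422 points with an SE of 0.0165 (two-sided exact permutation test, adjusted p = 0.873). The highest value was from a methionine ram and so was the lowest. In F1 the pools were at 0.378, 0.389, 0.358, 0.382 and 0.416% for methionine and at 0.389, 0.388, 0.397, 0.378 and 0.360% for control. The difference was 0.00223 points with an SE of 0.0112 (exact permutation test, adjusted p = 0.873). In F2 the methionine grandsons ranged from 0.444 to 0.558% with a median of 0.480%, and the control grandsons from 0.457 to 0.548% with a median of 0.474%. The difference of 0.00297 points had an SE of 0.0154 (permutation test, adjusted p = 0.873), and without the 4 rams with high nearby CG methylation it was 0.000947 points.

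**Figure D4:**
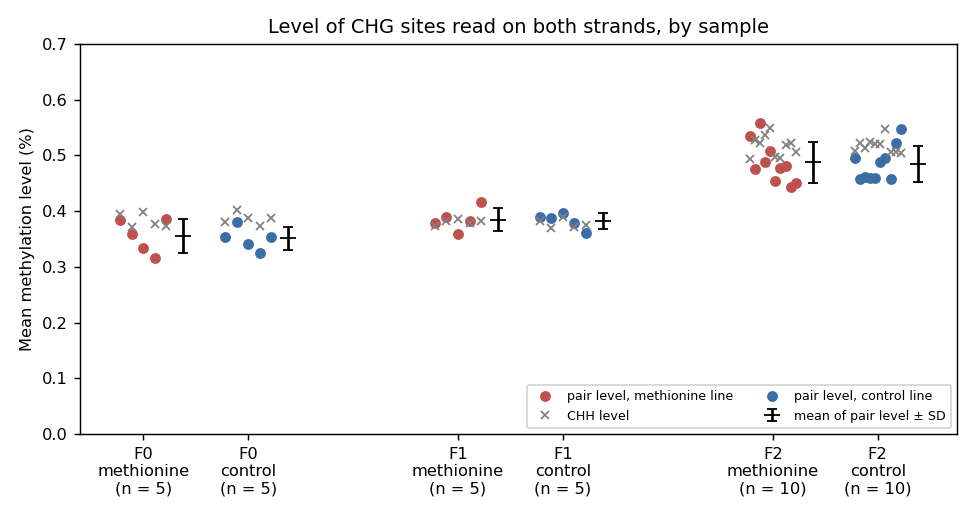
Mean CHG level of the pairs (y axis, %) in every sample by generation and diet of the F0 sire, with red circles for methionine, blue circles for control, black bars for the mean ± SD and grey crosses for the CHH level of the same sample. The diets overlap in every generation, and the 20 F2 rams lie above the F0 rams and F1 pools in both measures.

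The plus strand was on average slightly higher than the minus strand. In F0 the difference was 0.0143 points (0.360% against 0.346%; higher in 7 of 10 rams; exact sign-flip permutation test, adjusted p = 0.0527). In F1 it was 0.0412 points (0.404% against 0.363%; 9 of 10 pools; exact permutation, adjusted p = 0.00879). In F2 it was 0.0625 points (0.517% against 0.455%; 20 of 20 rams; permutation p = 1e-05, the smallest that 100000 resamples can give; adjusted p = 3e-05), and 0.0624 points without the 4 rams. With F2 rams averaged per sire it was higher in 10 of 10 sires (exact permutation, adjusted p = 0.00586). Pairs with a level of 20% or more on a strand in some sample numbered 21, 23 and 81. Without them the difference was 0.0144, 0.00887 and 0.0238 points, in the order of the generations (0.0225 in F2 without the 4 rams), and the F1 difference no longer passed (adjusted p = 0.279, exact permutation). Without the 1% of pairs with the highest coverage the F0 difference was 0.00203 points (exact permutation, adjusted p = 0.734). With reads summed the differences were 0.162, 0.195 and 0.186 points, and F0 passed too (exact permutation, adjusted p = 0.00195). With at least 20 reads F0 passed (0.0301 points; exact permutation, adjusted p = 0.0234) but F1 did not.

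Compared with CHG cytosines listed on 1 strand, the pairs were lower in F0, at 0.353% against 0.401% (lower in 10 of 10 rams; exact sign-flip permutation, adjusted p = 0.00293), and in F2, at 0.486% against 0.536% (17 of 20 rams; permutation, adjusted p = 0.00018). In F1 the levels were 0.384% and 0.394% (8 of 10 pools; exact permutation, adjusted p = 0.0547). With reads summed in place of a mean over cytosines, the pairs were higher in every generation, by 0.0680 points in F0 (exact permutation, adjusted p = 0.00781), 0.103 in F1 (0.00293 by the same test) and 0.0762 in F2 (permutation, adjusted p = 6e-05; 0.0470 without the 4 rams). With at least 20 reads in every sample the difference was 0.00615 points in F0 (exact permutation, adjusted p = 0.572), 0.0487 in F1 (exact permutation, adjusted p = 0.00293) and -0.0625 in F2 (permutation, adjusted p = 9e-05). Without cytosines that reached 20% in some sample it was -0.00478 points in F0 (exact permutation, adjusted p = 0.408). It was 0.0202 in F1 (exact permutation, adjusted p = 0.0168) and -0.0217 in F2 (permutation, adjusted p = 0.0168). Within autosomes it was -0.0105 points in F0 (adjusted p = 0.418, exact permutation), 0.0517 points in F1 (adjusted p = 0.00293) and 0.0706 points in F2 (adjusted p = 3e-05; 0.0667 points without the 4 rams), so that F1 and F2 pairs were higher there than one-strand cytosines. Within unplaced scaffolds it was -0.0170 points in F0 (adjusted p = 0.127, exact permutation), 0.0155 points in F1 (adjusted p = 0.0410) and -0.0288 points in F2 (permutation, adjusted p = 6e-05; -0.0342 points without the 4 rams). Without the 4 F2 rams the F2 difference over all pairs was -0.0670 points.

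Levels of 10% or more were rare among the pairs and elsewhere. A mean of 10% or more was found in 0.300% of the pairs' F0 cytosines, 0.338% of the F1 and 0.206% of the F2 ones, against 0.194%, 0.202% and 0.193% of the one-strand cytosines. A mean of at least 50% was found in 0, 1 and 4 cytosines of the pairs (0%, 0.0147% and 0.0192%) and in 1253, 1100 and 742 one-strand cytosines (0.0570%, 0.0534% and 0.0540%). These shares were not tested.

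Over the 2169 pairs listed in all generations, F2 was higher than F0 and F1. The levels were 0.374% ± 0.0244 in F0 (SD, n = 10), 0.386% ± 0.0199 in F1 (SD, n = 10) and 0.513% ± 0.0495 in F2 (SD, n = 20). F2 exceeded F0 by 0.140 points and F1 by 0.128 points, all 20 F2 rams lay above every F0 ram and F1 pool, and both adjusted p were 1.5e-05 (permutation, from the smallest p the resamples can give). Without the 4 rams the differences were 0.118 and 0.106 points, and with reads summed over all rams 0.226 and 0.206 points. F1 exceeded F0 by 0.0120 points with an SE of 0.00994 (permutation, adjusted p = 0.240). The F2 rams were read more deeply at these pairs. Their median coverage there, averaged over samples, was 122 reads, against 44.9 for the F0 rams and 41.6 for the F1 pools. With at least 20 reads in every sample, F2 exceeded F0 by 0.155 points and F1 by 0.141 points. The part of coverage in these differences was not tested.

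The level of CHH cytosines was also higher in F2, at 0.385% in F0, 0.379% in F1 and 0.517% in F2. It was taken over all CHH cytosines listed in each generation, which are not the same ones. After each sample's CHH level was subtracted, F2 and F0 differed by 0.00751 points (permutation, adjusted p = 0.692) and F2 and F1 by -0.0102 points. The labels give no sequencing run, so generation and library batch cannot be told apart. Within a generation no correlation of the pair level with the CHH level passed the test. Pearson's r was 0.274 in F0, 0.241 in F1 and -0.0122 in F2, Spearman's rho was 0.0303, 0.382 and 0.0301, and the adjusted permutation p lay between 0.761 and 0.959 for r and between 0.839 and 0.946 for rho over the 3 relations. Without the 2 samples farthest from the median CHH level, r was 0.287, 0.218 and -0.174. Over the 16 F2 rams apart from the 4, r was 0.533 and rho 0.4 (permutation, adjusted p = 0.1004 and 0.378), and r fell to 0.175 without the 2 farthest of these.

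Pairs near CG sites of high methylation had higher CHG levels than pairs near CG sites of lower methylation. Of the F0 pairs, 224 had a mean CG level of 50% or more within 100 bases and 2804 one under 50%. Their CHG levels were 0.692% and 0.328%, a difference of 0.364 points with an SE of 0.0269 that was positive in 10 of 10 rams (exact sign-flip permutation, adjusted p = 0.00195, the smallest possible with 10 samples). In F1 the levels were 0.722% and 0.343% (10 of 10 pools; exact permutation, adjusted p = 0.00195), and in F2 0.590% and 0.449% (20 of 20 rams; permutation, adjusted p = 6e-05). Without the pairs that reached 20% on a strand in some sample the differences were 0.218, 0.160 and 0.0262 points (0.0301 in F2 without the 4 rams). Without the 4 rams the F2 difference was 0.151 points, and 0.291 points when the CG level of the other 16 alone set the classes (higher in 16 of 16 rams in both; exact permutation, adjusted p = 0.000183). Pairs with no listed CG site within 100 bases (477, 474 and 1379 in the 3 generations) had levels of 0.344%, 0.350% and 0.555%. In F2 these stood close to the pairs near methylated CG sites, and without the pairs that reached 20% they were at 0.472% against 0.450%, which was not tested. In F0 the strands at 10% or more numbered 10 among the 224 pairs near CG levels of 50% or more and 10 among the 2804 near lower ones. In F1 they numbered 14 among 353 pairs and 9 among 2571, and in F2 21 among 1691 and 18 among 7365. They were thus a larger share of the pairs near methylated CG sites, which was not tested.

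Across samples, the pair level and the nearby CG level had a Pearson r of 0.657 over the 10 F0 rams (permutation, adjusted p = 0.0996) and a Spearman rho of 0.794 (permutation, adjusted p = 0.0263), with r = 0.687 without the 2 rams farthest from the median. Without the pairs that reached 20% in some sample neither passed in F0 (r = 0.630 and rho = 0.661; permutation, adjusted p = 0.131 and 0.127). Over the 10 F1 pools r was 0.514 and rho 0.297 (permutation, adjusted p = 0.206 and 0.406; r = 0.390 without the 2 farthest and 0.0536 without the pairs that reached 20%). Over the 16 F2 rams apart from the 4 named above r was 0.272 and rho 0.365 (permutation, adjusted p = 0.318 and 0.244; r = 0.0565 without the 2 farthest). The 4 rams had pair levels of 0.523 to 0.558%, above the 0.444 to 0.509% of the other 16.

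**Figure D5:**
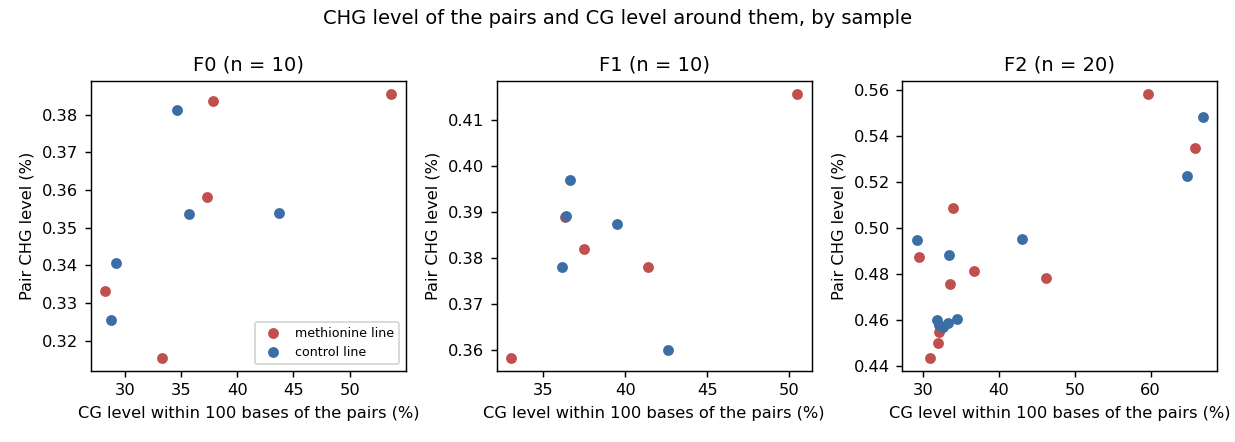
Mean CHG level of the pairs (y axis, %) against the CG level within 100 bases of them (x axis, %) in every sample of a generation, red for methionine and blue for control. In F2, 4 rams lie at 59.7 to 66.9% on the x axis, apart from the other 16, with the highest pair levels.

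No cytosine of a pair was differentially methylated between the diets by the study's thresholds. A call required 20 points or more between the diets and an adjusted p no higher than 0.01, with the adjustment over all listed CHG cytosines. The calls were computed anew here, and their numbers over all CHG cytosines differ somewhat from those the study reported. The counts were 0 of 7010 in F0, 0 of 6796 in F1 and 0 of 20870 in F2, and over all listed CHG cytosines 0.0142% (313), 0.00605% (125) and 0.0306% (427) passed. At these shares the pairs' cytosines would hold 0.995 calls in F0, 0.411 in F1 and 6.39 in F2, so that 0 is near the background in F0 and F1 and below it in F2, which was not tested. The pairs' cytosines with an unadjusted p under 0.05 in the logistic test numbered 203 (2.90%), 197 (2.90%) and 2026 (9.71%), against 1.58%, 1.44% and 8.03% of all. By limma on the levels of the samples, 0 of them and 0 of all cytosines passed. An unadjusted limma p under 0.05 was found for 62 (0.884%), 62 (0.912%) and 427 (2.05%) of the pairs' cytosines, against 0.533%, 0.557% and 1.04% of all. Over the reads summed per diet, on which the calls rest, the largest difference at a pair was 13.7, 14.7 and 19.4 points in the 3 generations, under the size required. Differences between means of the samples' levels could be larger.

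The largest was at the plus strand of chr21:29117475-29117477 in F2. The methionine grandsons ranged from 32 to 100% and the control grandsons from 27.3 to 96.6%, with 11 to 42 reads. The means were 74.1% ± 27.7 and 50.8% ± 21.2 (SD, n = 10 each). The difference of 19.4 points over the summed reads had an adjusted p of 0.0103 in the logistic test and 0.667 by limma. The minus strand of this pair was at 0 in all control grandsons and at 8.89% at most in methionine grandsons.

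A logistic adjusted p of at most 0.01 was reached at smaller sizes by 1 strand in F0, none in F1 and 1 in F2. At any size, 0.0143%, 0% and 0.00479% of the pairs' cytosines reached it, in the order of the generations. Over all listed CHG cytosines the shares were higher, at 0.0223% (491), 0.00992% (205) and 0.0644% (898), which was not tested. The F0 strand was the plus strand of chr10:53457810-53457812. There ram 5T was at 53.6% of 56 reads, ram 6C at 3.17% and the others at 0. The difference was 13.7 points (logistic adjusted p = 6.77e-05, limma adjusted p = 0.880). The value thus rested on 1 ram. In F1 the pool of its sons was at 12.5% of 24 reads and the other 9 pools at 0 to 5.13%. In F2 the same strand was at 37.8% in a grandson of the methionine ram 23T, at 41.7% in a grandson of the control ram 10C and at 2.44% or less in the other 18. The F2 strand was the plus strand of chr14:410791-410793, in the run on chromosome 14, with 14.4% ± 1.19 in methionine and 12.8% ± 1.11 in control grandsons (SD, n = 10 each; 1.60 points, logistic adjusted p = 2.48e-07, limma adjusted p = 0.667). It had 3965 reads per ram on average, and the logistic test counts reads as independent. In F0 this strand was at 11.4% ± 1.20 and 10.2% ± 1.63 (SD, n = 5 each), and in F1 at 11.6% ± 1.20 and 11.1% ± 1.61, with adjusted p of 0.707 and 1.

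No pair had an adjusted p under 0.01 on both strands in any generation. Of the CHG cytosines called in all 3 generations, 6 in number and each in 1 direction, none belonged to a pair. The study's own list of shared CHG cytosines holds 5, and none of these belonged to a pair either.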

How the data were processed

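The authors trimmed bisulfite reads with Trim Galore, aligned them to Oar_rambouillet_v1.0 with Bismark and Bowtie2, removed duplicates and extracted calls. The deposited tables hold, per cytosine and sample, whole-number counts of covering and of methylated reads, not normalized, for cytosines that every sample of the generation covered 10 times or more. This coverage sets the precision, since 1 of 10 reads is worth 10 points. The 120 columns of unmethylated reads were not used. The RNA file holds raw counts per gene that the authors made with Trimmomatic and STAR, used here only as CPM of marker genes.

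Pairs, levels and tests were computed with Python 3.11.15, NumPy 2.4.6, pandas 2.3.3 and SciPy 1.17.1, and figures with matplotlib 3.10.9. A sample's level is the mean over the cytosines of its pairs. Diets and generations were compared by two-sided permutation tests over samples (exact for 5 against 5, otherwise 100000 resamples), strands and sets by sign-flips within samples, with Benjamini-Hochberg adjustment over the 3 generations or comparisons at 0.05. Single cytosines were tested over all listed CHG cytosines by a likelihood-ratio test in a logistic model of the reads summed per diet, methylKit's default, and with limma 3.58.1 (R 4.3.3). Tested on simulated F0 data, the former recovered 78% of 50 cytosines raised by 25 points and 100% of those raised by 35 to 60, with 0 false calls among 2205627. Apart from the points added, the simulated rams shared the same rate at a cytosine. False calls from differences between animals could therefore not appear in this simulation.

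Named pairs are the 5 with the highest lower strand and the 5 with the largest strand difference in F0, those with called cytosines and those in the study's list of shared CHG marks, of which there were none. Those at 20% or more on a strand, at an adjusted p of at most 0.01 or in runs at 22 bases were added after their values were seen. The members, lists and tests were chosen with earlier results of these data known. Alternatives covered the weighting, coverage, highly methylated or deeply covered pairs, autosomes, the CHH level, sires, replicates and the test.

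As a pairing check, deviations from the group mean were correlated over strands of 10% or more. Consecutive F0 numbers, which may be the twins of the labels, gave 0.140 to 0.454 over 21 cytosines, and every pair was over 0.1. Other pairs of F0 rams were not compared, so these values cannot tell twins from rams that are not. Samples sharing an F0 sire number gave -0.640 to 0.562 between F0 and F1, -0.428 to 0.377 between F0 and F2 and -0.424 to 0.433 between F1 and F2. These samples are tied by descent, but over 18 to 23 cytosines the check showed no steady likeness by sire number.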

Additional observations from a re-analysis of the deposited data

Results flagged for a closer look

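Of 92 groups of 5 or 10 samples examined, 4 held a sample whose gap to its nearest neighbour was large for the range of the group, and chance alone gives about 1 in 20 such groups. The plus and minus levels of the pairs themselves and the CG level near them gave none. Among the control grandsons, 1 of ram 12C had a level of 0.567% over one-strand CHG cytosines, against 0.522 to 0.543% in the other rams of the group. Among the methionine grandsons, 1 of ram 3T, which is among the 4 rams with high nearby CG methylation, was at 82.6% on the minus strand of NW_020996801.1:15329-15331, against 15.4 to 44.7% in the others, and at 59.6% on the minus strand of NW_020998094.1:32191-32193, against 21.1 to 40.6%. On the latter strand the F0 control ram 10C was at 12.5%, against 14.6 to 15.4% in the other F0 control rams.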

How the results depend on the processing

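The planned comparison of CAG with CTG strands and the restriction of one-strand cytosines to CAG and CTG were not run, because no genome of this build was used here. No partner reached the threshold at 50%, 20%, 10% or 5%. At 10%, with at least 20 reads this rests on 11, 13 and 27 strands in F0, F1 and F2, and without the 1% of pairs with the highest coverage on 18, 19 and 34 (both added after seeing the data). At 50% too few strands were left to tell. The counts of called cytosines and pairs were 0 under every alternative run, leaving out each F0 and F1 replicate included.

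The diet difference passed no test under any alternative run. It rose to 0.0428 points in F0 and 0.0342 in F1 with reads summed and to 0.0314 in F0 on autosomes. Without highly methylated pairs it was -0.00201 points in F0 and -0.000613 in F1, after subtraction of the CHH level -0.00107 in F1, and with each group of neighbouring pairs weighted once (added after seeing the data) -0.0176 in F1 and -0.00802 in F2. Leaving out 1 replicate gave -0.00334 to 0.0141 in F0 and -0.00553 to 0.00879 in F1. The replicate block of consecutive numbers left the differences at 0.00422, 0.00223 and 0.00297 points (exact sign-flip permutation, adjusted p = 0.813), but 5 pairs cannot give a p under 0.0625. The replicate block of the sire number left the generation differences at 0.0120, 0.140 and 0.128 points (exact permutation, adjusted p = 0.174, 0.00293 and 0.00293), which changed none of these 3 calls. No block was fitted to single cytosines or to the strand differences.

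The excess of the plus strand was 0.162, 0.195 and 0.186 points with reads summed, and so passed in F0 too, as it did with at least 20 reads (0.0301), was 0.00203 in F0 without the 1% of pairs with the highest coverage, and did not pass in F1 with at least 20 reads (0.0157) or without highly methylated pairs (0.00887). The difference between pairs and one-strand cytosines changed sign with reads summed (0.0680, 0.103 and 0.0762 points in F0, F1 and F2; 0.0470 in F2 without the 4 rams), which weights deep cytosines more. With at least 20 reads it was 0.00615 in F0, 0.0487 in F1 and -0.0625 in F2. Without highly methylated cytosines it was -0.00478, 0.0202 and -0.0217 (sign-flip permutation, adjusted p = 0.408, 0.0168 and 0.0168). There F0 no longer passed and F1 passed with the opposite sign. On unplaced scaffolds (added) it was -0.0170, 0.0155 and -0.0288. On autosomes (added) it was -0.0105, 0.0517 and 0.0706, and 0.0667 in F2 without the 4 rams. With reads summed the generation differences were 0.226 (F2 minus F0) and 0.206 (F2 minus F1). After subtraction of the CHH level the generation differences were 0.00751 (F2 minus F0) and -0.0102 (F2 minus F1). The correlation with the CHH level was -0.131 in F0 with reads summed and in F2 0.0322 without highly methylated pairs and 0.533 without the 4 rams (added). The causes were not tested.

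Coverage limits single levels: with 10 to 30 reads per strand in a ram, a low level on the lower strand cannot be told from 0.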

Other observations

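CHG cytosines that form the outer cytosine of CCG face a CG cytosine on the other strand, and those with that CG partner listed numbered 1472, 1434 and 3868 in the 3 generations. Their mean CHG level was 0.387% ± 0.0274, 0.382% ± 0.0368 and 0.498% ± 0.0656 (SD over 10, 10 and 20 samples), while the minus CG partners of those on the plus strand were at 42.4%, 44.8% and 46.0%. When the pairs were divided by coverage into 4 classes of about equal size, the mean level in F0 was 0.302, 0.345, 0.367 and 0.398% from the least to the most deeply covered class. In F2 it was 0.518, 0.459, 0.420 and 0.547%, and 27 of the 43 strands at 10% or more were in the most deeply covered class. The 4 F2 rams with high nearby CG methylation came from 3 sires, and both grandsons of sire 24C were among them.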
